A study of Caenorhabditis elegans with 2 samples.

Results

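Peaks of the transcription factor subunit NFYA-1 whose summit lay between the starts of 2 divergently transcribed genes were examined in young adult worms. There were 150 such peaks among 29478 nuclear peaks. They were taken from the list that was called on both replicates pooled and that holds weak peaks and background besides strong ones. Overlapping peaks had been merged, keeping the summit of the highest signal value. A peak was included when its summit lay between the annotated starts of neighbouring protein-coding genes on opposite strands that point away from each other, at most 1000 bp apart, and in no coding exon. The start of a gene is the outermost annotated end. The rule used position alone and no measured signal. The peaks were compared with 2464 single-gene upstream peaks, whose summit lay at most 1000 bp upstream of exactly 1 protein-coding start and inside no protein-coding gene. Of the other summits, 21297 lay in a protein-coding gene, 111 upstream of both genes of a longer divergent gap and 5456 elsewhere between genes.

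The peaks come from chromatin immunoprecipitation with sequencing (ChIP-seq) of whole Caenorhabditis elegans hermaphrodites, in 1 group of 2 biological replicates. Both replicates are of strain OP404, genotype unc-119(tm4063) III; wgIs404. The integrated transgene wgIs404 makes NFYA-1 with a GFP-FLAG tag at its C-terminal end, and sonicated chromatin was pulled down with an antibody against GFP. The promoter that drives the transgene is not stated in the labels, a single transgenic line was used, and the peaks mix all cells of the animal. The pooled list and each replicate list held 30000 peaks, nearly all 290 bp wide with the summit at the midpoint. The same control file was used for both replicates. Each peak carries a signal value that the authors deposited and whose scale is not stated. The lists hold no read counts, so the depth is unknown, and intervals below cover the counting of peaks or gaps only.

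NFYA-1 is a worm homologue of the A subunit of the transcription factor NF-Y. In animals NF-Y is made of the subunits A, B and C. The B and C subunits pair through histone-like folds, and the A subunit joins them and makes the contact with the DNA word CCAAT. In mammals CCAAT boxes are common shortly upstream of gene starts, also in promoters shared by divergent genes. A divergent gap places the promoters of both genes next to each other, so a factor bound there lies upstream of both.

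The sequences at the summits show what these peaks hold at their centres. The 3 peaks with the highest signal value hold no CCAAT within 50 bp of the summit, and the other 6 sequences below are the highest-signal peaks with a CCAAT at most 10 bp from it. Each sequence is the plus strand of up to 50 bp on either side of the summit, kept between the starts, from the RefSeq genome of assembly WBcel235 (ce11). The positions are chrV:20195645-20195745 for srh-217/Y113G7B.28, chrIII:13393656-13393756 for dnj-17/qdpr-1, chrX:12320778-12320859 for ceh-40/F17A2.13, chrII:6531951-6532051 for abch-1/abcx-1, chrV:9991643-9991696 for rde-1/trpp-6, chrV:3273687-3273787 for T28A11.20/T28A11.4, chrV:5239507-5239607 for C52A10.3/B0238.15, chrV:13318272-13318372 for col-161/srh-18 and chrV:19288438-19288538 for F55C9.3/fbxb-57. Capitals mark CCAAT or, where the word is on the minus strand, ATTGG.
srh-217/Y113G7B.28: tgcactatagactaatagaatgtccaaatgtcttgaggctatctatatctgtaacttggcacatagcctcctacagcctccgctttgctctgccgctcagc
dnj-17/qdpr-1: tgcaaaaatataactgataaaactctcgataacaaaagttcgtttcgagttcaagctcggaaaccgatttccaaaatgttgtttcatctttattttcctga
ceh-40/F17A2.13: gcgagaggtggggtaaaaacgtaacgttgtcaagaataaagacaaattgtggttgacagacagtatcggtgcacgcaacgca
abch-1/abcx-1: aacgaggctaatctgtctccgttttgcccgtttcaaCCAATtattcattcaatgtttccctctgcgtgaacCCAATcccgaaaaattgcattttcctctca
rde-1/trpp-6: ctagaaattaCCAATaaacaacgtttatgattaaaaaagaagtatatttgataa
T28A11.20/T28A11.4: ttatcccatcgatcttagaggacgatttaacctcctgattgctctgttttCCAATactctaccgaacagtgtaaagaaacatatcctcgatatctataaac
C52A10.3/B0238.15: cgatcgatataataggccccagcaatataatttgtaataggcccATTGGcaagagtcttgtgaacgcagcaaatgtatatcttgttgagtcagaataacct
col-161/srh-18: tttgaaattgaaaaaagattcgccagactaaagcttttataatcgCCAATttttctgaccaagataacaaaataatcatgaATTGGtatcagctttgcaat
F55C9.3/fbxb-57: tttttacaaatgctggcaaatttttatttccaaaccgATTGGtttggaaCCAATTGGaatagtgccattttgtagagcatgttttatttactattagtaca

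Either strand was searched for CCAAT up to 50 bp from each summit, and 21.7% of all 29478 nuclear peaks held it. The peak of F55C9.3 and the F-box gene fbxb-57 had 3 copies, of which ATTGG and CCAAT overlap in the run in the middle of its sequence. The peaks of col-161, a cuticle collagen gene, with the chemoreceptor gene srh-18, and of the ABC transporter genes abch-1 and abcx-1 had 2 copies each. The summit of rde-1, which encodes the Argonaute protein needed for RNA interference, and trpp-6, a gene of the vesicle-tethering TRAPP complex, lay 7 bp from its CCAAT and 4 bp from the start of rde-1. The pooled signal values were 20 for abch-1, 18.8 for rde-1, 18.4 for T28A11.20, 16.3 for C52A10.3, 15.5 for col-161 and 15.2 for fbxb-57. The peak of fbxb-57 was in neither replicate list, and those of C52A10.3 and col-161 were in the replicate 2 list alone. In replicates 1 and 2, the peak of abch-1 ranked 13317 and 16261, rde-1 26465 and 9889, and T28A11.20 8352 and 25646. The summit of abch-1 lay in a noncoding gene. A match is a word in the sequence and not a shown binding site.

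The divergent-gap peaks lay near the middle of the pooled list and below the final regions in signal. Their signal values ran from 13.5 to 33.0 with a median of 17.1 (quartiles 15.1 and 19.9). The median was 16.8 for the single-gene upstream peaks, 17.8 for peaks in protein-coding genes and 17.5 for all nuclear peaks. None reached the 38.6 that was the lowest value among the 71 nuclear regions of the final list, which the authors cut by the irreproducible discovery rate. Of the 150 peaks, 0 overlapped a final region, which allows a share of up to 2.00%. This compares with 0.241% of all nuclear peaks and with 2 of the 2464 single-gene upstream peaks. With an odds ratio of 0 (95% interval 0 to 87.7; Fisher's exact test, two-sided, p = 1, adjusted p = 1), a difference was not detectable at these counts.

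Among the 5000 highest nuclear peaks, which are 17.0% of all, stood 14 of the 150 divergent-gap peaks, 9.33% (exact 95% interval 5.2 to 15.2). The single-gene upstream peaks, 2464 in number, had 10.2% there (9.02 to 11.4). The odds ratio was 0.908 (0.476 to 1.61), two-sided Fisher's exact p = 0.889, adjusted p = 1 over the 8 tests made. Both classes of upstream peaks had a lower share there than the 19.1% of peaks in protein-coding genes, a description that was not tested. Only 2 divergent-gap peaks were among the 1000 highest, and 43 were among the 10000 highest.

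**Figure D1:**
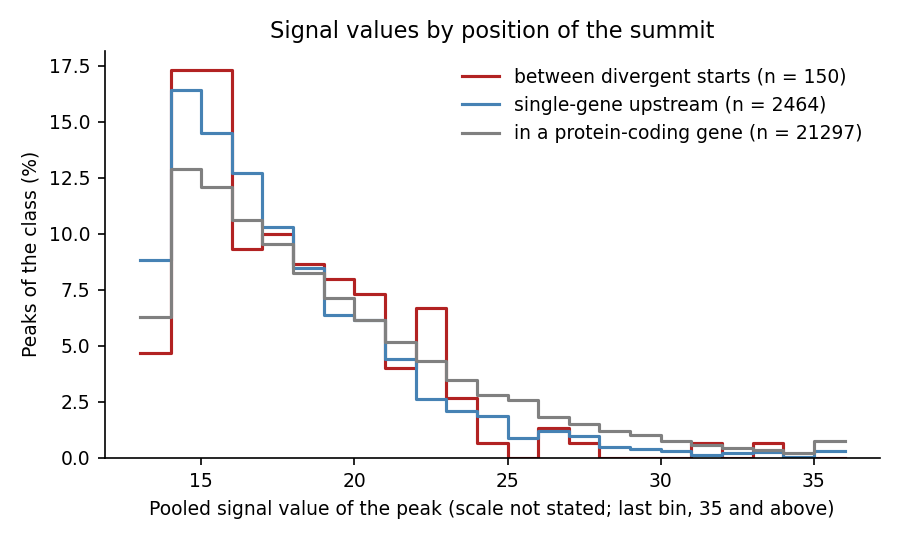
Share of the peaks of a class (vertical axis, %) against the pooled signal value in bins of 1 unit (horizontal axis, scale not stated, last bin 35 and above), for the 150 divergent-gap peaks, 2464 single-gene upstream peaks and 21297 peaks in protein-coding genes. Most peaks of the 3 lines lie in the same bins, with medians of 17.1, 16.8 and 17.8, and the divergent-gap line, which rests on few peaks per bin, ends at 33.0. The single-gene upstream peaks reach 39.9 and those in protein-coding genes 83.4, gathered in the last bin.

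The highest signal value, 33.0, belonged to the peak at V 20195550 to 20195839 between Y113G7B.28 and srh-217, a gene of a family of chemoreceptors, the seven-transmembrane proteins with which worm neurons sense odours and tastes. Its signal value was 10.3 in the replicate 1 list and 22.3 in the replicate 2 list, and its summit lay 144 bp from the start of srh-217. It ranked 320 of the 29478 nuclear peaks. The second, 31.4 at III 13393561 to 13393850, lay 204 bp from qdpr-1, a gene for the enzyme that recycles tetrahydrobiopterin, and shares its gap with dnj-17, a gene for a DnaJ co-chaperone. It was the rank 94 peak of the replicate 2 list with a signal value of 26.2 but rank 27079 of the replicate 1 list with 5.76. The replicates thus placed it near the top and near the bottom. The third, 27.3 at X 12320664 to 12320953, lay 32 bp from the start of the homeobox gene ceh-40, with 11.5 in replicate 1 and 15.5 in replicate 2. The same gap held another summit, with 14.8, nearer to F17A2.13.

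The next 9 peaks had signal values from 26.6 down to 22.7. The peak of spig-3 and F14D7.12 on chromosome V had 26.6 pooled, 12.5 in replicate 1 and 14.8 in replicate 2. The chemoreceptor genes srxa-19 (26.0 pooled, 11.2 and 12 in the replicates) and srh-32 (23 pooled, 7.04 and 17) bordered further peaks. The peak of the chemoreceptor gene str-253 (24.2 pooled) was in the replicate 2 list alone, with 14.4. Its sequence was 58.4% G and C, and its 290 bp had 9 other alignments in the nuclear genome at 90% identity over 100 bp, so the placement of its reads is uncertain. Another summit lay 19 bp from the start of Y47D3A.1 and 588 bp from that of pola-1, which encodes the catalytic subunit of DNA polymerase alpha. The peak of this pair had 23.4 pooled, 6.42 in replicate 1 and 17.4 in replicate 2. That of W03F8.6 and mtrf-1L, a gene related to mitochondrial release factors, had 23.3, 9.43 and 14.2. F43C11.12 with F16G10.5 and T06G6.4 with T06G6.5 each had 23.1. The last was in the gap of dhs-21, a short-chain dehydrogenase gene, and xbx-9, at 22.7, seen in replicate 2 alone with 16.9. Of these 12, only the peak of dhs-21 and xbx-9 had a CCAAT within 50 bp, 13 bp from its summit.

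Several further pairs were picked after their values were seen, because their genes are well known. The gap of fem-1, a sex determination gene, and drp-1, whose product divides mitochondria, had a pooled signal value of 22.2. The cathepsin B-like protease genes cpr-5 and cpr-8 had 22.1. F18A1.7 and rpa-1, which encodes the large subunit of the single-strand DNA binding protein RPA, had 22.0, and spn-4, an RNA-binding protein gene of the early embryo, with spe-39 had 21.6. The nlp-34 and nlp-31 pair of neuropeptide-like genes had 22.5. In replicates 1 and 2, fem-1 with drp-1 had 5.97 and 15.8, rpa-1 6.37 and 14.4, and spn-4 8.28 and 14.1. The nlp-34 and nlp-31 peak had 10.6 and 9.29, and that of cpr-5 was in the replicate 1 list alone, with 10.5. In replicate 1 the peak of fem-1 ranked 25251 and that of rpa-1 ranked 22320, and in replicate 2 that of nlp-34 ranked 26612. None of these peaks had a CCAAT within 50 bp of the summit.

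The replicates listed different members of the set. Of the 150 peaks, 86 (57.3%) were overlapped by a peak of the replicate 1 list, 115 (76.7%) by one of the replicate 2 list, 65 (43.3%) by both and 14 (9.33%) by neither, against 4.87% by neither over all nuclear peaks. All nuclear peaks were overlapped in both lists in 43.3%, the same share. The single-gene upstream peaks had 918 of 2464 in both lists, 37.3%, and the odds ratio of 1.29 (0.908 to 1.82) did not pass, two-sided Fisher's exact p = 0.141, adjusted p = 0.562. The pooled list shares reads with both replicate lists, so overlap with them is no independent repeat.

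In the replicate 1 list, the signal values at these peaks ran from 5.55 to 13.4 with a median of 7.56, and in the replicate 2 list from 9 to 26.2 with a median of 12.1. The lists have their own scales, so these levels stand side by side. Across the 65 peaks in both lists, the signal values of the replicates had a Spearman rho of 0.056, a description over peaks that share both libraries. No value for other peaks is given here, so the low rho is not shown to be particular to this set. Besides srh-217, ceh-40, spig-3 and W03F8.6, the peaks that ranked best in both lists lay between msp-74, a major sperm protein gene, and srsy-1 (21.8 pooled, 11.3 and 15.9 in the replicates) and between mpz-6 and arrd-2, an arrestin domain gene (18.9 pooled, 11.0 and 15.7). The rule applied to each replicate list on its own gave 148 and 151 peaks. Summits then lay in 144 of the 1718 divergent gaps in replicate 1 and in 8.44% of them in replicate 2, with 58 gaps in common, which is 40.3% and 40.0% of each list.

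**Figure D2:**
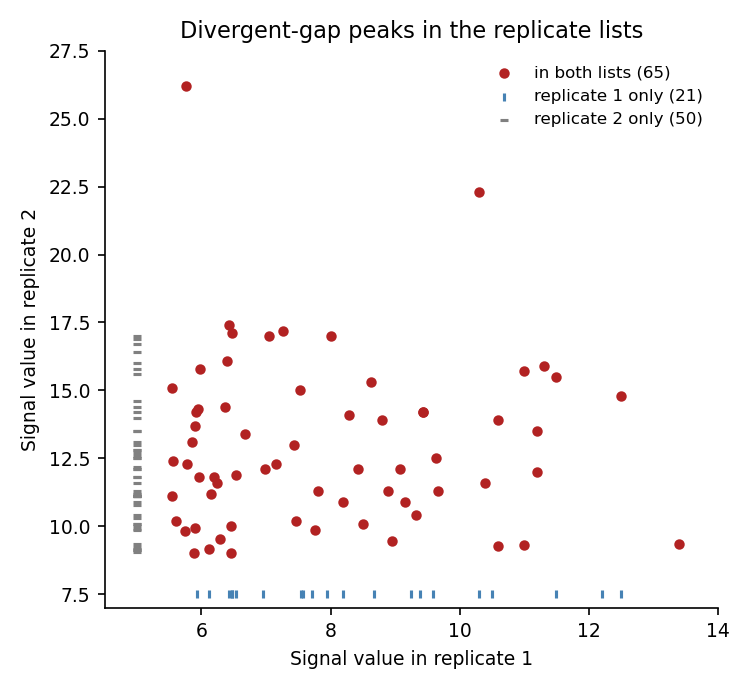
Signal value in the replicate 1 list (horizontal axis) against that in the replicate 2 list (vertical axis) for the divergent-gap peaks, each on the scale of its list. The 65 points in both lists form no line (Spearman rho 0.056), while 21 peaks seen in replicate 1 alone are drawn along the bottom and 50 seen in replicate 2 alone along the left.

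Of the 1718 divergent gaps up to 1000 bp in the genome, 144 held at least 1 summit, 8.38%, and 6 of these held more than 1. Counted by gap and not per kb, longer gaps held summits more often. A summit lay in 9 of 369 gaps up to 250 bp (2.44%), in 24 of 538 above 250 and up to 500 bp (4.46%) and in 111 of 811 longer ones (13.7%). Tandem gaps, which lie between neighbouring genes on the same strand, had 41 of 2166 (1.89%), 99 of 1357 (7.3%) and 304 of 2018 (15.1%). Convergent gaps, between 2 gene ends, had 1.33%, 5.53% and 11.3%.

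None of the differences between divergent and tandem gaps passed after adjustment. The odds ratio was 1.3 (0.549 to 2.74) in the shortest gaps, two-sided Fisher's exact p = 0.541, adjusted p = 0.866. In the middle bin it was 0.593 (0.359 to 0.947), exact p = 0.023, adjusted p = 0.184, and in the longest 0.894 (0.7 to 1.14), exact p = 0.378, adjusted p = 0.799. By length, divergent gaps had 0.178 summits per kb, tandem gaps 0.203 and convergent gaps 0.158. Divergent gaps without histone genes had 0.156 per kb up to 250 bp, 0.125 above 250 and up to 500 bp and 0.199 above that. The nuclear genome as a whole had 0.294 per kb and coding exons 0.557, so the divergent gaps had fewer summits per kb than the genome, a description that was not tested.

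**Figure D3:**
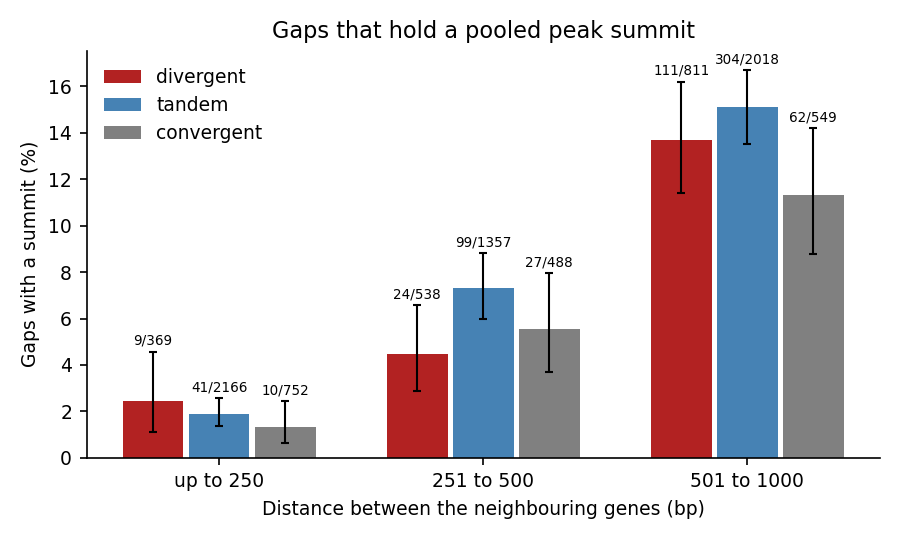
Share of gaps that hold a pooled summit (vertical axis, %) by distance between the neighbouring genes (horizontal axis, bp) for divergent, tandem and convergent gaps, with exact 95% intervals as bars and the counts above them. All 3 kinds of gap rise with length, divergent gaps from 2.44% to 13.7%.

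The summits lay from 4 bp off a gene start to near the centre of the gap. The distance between the starts of the pairs had a median of 698 bp (132 to 999), against 476 bp over all divergent gaps. The nearer start was a median of 134 bp from the summit (quartiles 58.8 and 224), and 64 of the 150 summits were at most 100 bp from a start. The central 50% of the gap length held 61 summits, 40.7%. The whole peak lay between the starts for 66 peaks, and 69 (46.0%) reached into a coding exon of a bordering gene, against 18.2% of the single-gene upstream peaks and 63.3% of all nuclear peaks. The rule kept each summit near a start, the nearer one at most 464 bp away. A single-gene upstream summit could lie up to 1000 bp from its start. Whether these distances go with the difference in contact with exons was not tested, nor was the difference itself.

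Peaks that reached into a coding exon differed from the rest of the set. Their median signal value was 17.4 against 16.3, and 39 of 69 (56.5%) were overlapped in both replicate lists against 26 of 81 (32.1%) of those that touched no coding exon. These values were not tested. Among peaks that overlap no coding exon, the odds ratio for both lists against single-gene upstream peaks was 0.818 (0.488 to 1.34), the opposite direction to that over all 150, exact p = 0.48, adjusted p = 0.866, in a comparison added after the data were seen.

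At the limit of the rule, the widest gaps inside were those of nol-6 with Y51H7C.3 (991 bp, signal value 14.2), ceh-7 with prx-5 (995 bp, 19.5) and msrp-4 with F46F5.10 (999 bp, 17.1). The nearest outside were srj-49 with ugt-53 (1003 bp, 16.9), K06A9.3 with K06A9.2 (1005 bp, 15.4) and T07D3.9 with T07D3.2 (1019 bp, 22.9).

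CCAAT, the word NF-Y is known to bind, did not pass a test of difference against either comparison. It stood within 50 bp of the summit in 26 of 150 peaks, 17.3% (exact 95% interval 11.6 to 24.4). The single-gene upstream peaks had 454 of 2464, 18.4%, odds ratio 0.928 (0.576 to 1.45), two-sided Fisher's exact p = 0.828, adjusted p = 1. The midpoints of divergent gaps with no summit had 230 of 1574, 14.6%, odds ratio 1.23 (0.753 to 1.93), exact p = 0.4, adjusted p = 0.799. The intervals include both a smaller and a larger share at the peaks.

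Within the set, the strongest peaks did not hold CCAAT most often. It was present in 7 of the 50 peaks with the highest signal values, 10 of the next 50 and 9 of the last 50. The median signal value was 16.5 with the word and 17.2 without. Where it was present, the nearest copy was a median of 19 bp from the summit (0 to 46), and 18 of 26 were at most 25 bp away. Of the 30 orders of its letters, each sought on either strand, CCAAT was in place 8, tied, by its share of the divergent-gap summits. By the ratio of that share to the share at single-gene upstream summits, 0.941, CCAAT was in place 17. The G and C content had a median of 34.7% at these summits, 35.6% at single-gene upstream summits and 39.6% over all peaks. In the lowest, middle and highest of 3 equal classes of G and C content, 20.7%, 17.6% and 12.2% of divergent-gap summits held CCAAT, against 15.8%, 21.7% and 17.6% of single-gene upstream summits.

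Over the whole gap, CCAAT was present in 920 of the 1718 divergent gaps, 53.6%, and in 95 of the 144 with a summit, 66.0%. Gaps with a summit were longer. By length the shares were closer above 250 bp and farther apart in the few gaps up to 250 bp. In gaps above 500 bp they were 73.0% with a summit and 71.6% without, and in those above 250 and up to 500 bp they were 41.7% and 45.1%. In gaps up to 250 bp they were 44.4% of 9 and 25.6% of 360. These shares were not tested.

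**Figure D4:**
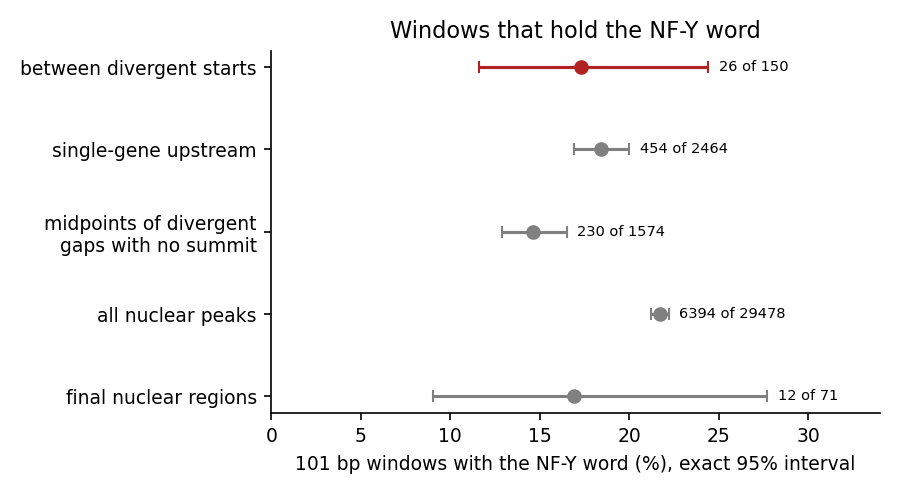
Share of windows, 50 bp on either side of the centre, that hold CCAAT on either strand (horizontal axis, %) at divergent-gap summits, single-gene upstream summits, midpoints of divergent gaps with no summit, all nuclear peaks and final nuclear regions, with exact 95% intervals. The interval of the divergent-gap summits, 11.6 to 24.4%, includes the point of each other group, and the final regions had 12 of 71, 16.9%.

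Chemoreceptor genes were the most numerous of the listed genes at these peaks. Of all 3436 protein-coding genes at a divergent gap, 288 (8.38%) had a summit in the gap. Of the 129 chemoreceptor genes there, 29 had one, 22.5%. Counted by gap, 25 of the 109 with a chemoreceptor gene held a summit, 22.9% (15.4 to 32), against 7.4% (6.16 to 8.79) of the 1609 without one. This was a description that was not tested, in lists chosen with earlier results of these data known. The gaps of 4 pairs in which both genes are chemoreceptors held summits, of 20 such pairs. These were sre-35 with sre-33 (signal value 19.9), srd-58 with srd-59 (18.4), srj-27 with srr-7 (18.1) and str-240 with str-243 (15.5), the last in the replicate 2 list alone.

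Among divergent gaps, the higher share at chemoreceptor genes was present in each length bin and chromosome class. It was 2 of 8 gaps against 7 of 361 up to 250 bp, 7 of 20 against 17 of 518 above 250 and up to 500 bp, and 16 of 81 (19.8%) against 95 of 730 (13.0%) above that. On chromosome V, which holds 78 of the 109 chemoreceptor gaps, it was 19 of 78 (24.4%) against 37 of 341 (10.9%), and elsewhere 6 of 31 (19.4%) against 82 of 1268 (6.47%). Over all lengths, tandem gaps beside chemoreceptor genes had 13.8% against 7.32%, and convergent gaps 9.6% against 5.03%. By length the tandem shares were 3.19% against 1.83% up to 250 bp, 14.7% against 6.03% up to 500 bp and 16.4% against 14.8% above that. The convergent shares in the same bins were 1.14% against 1.36%, 16.1% against 4.17% and 16.7% against 10.7%. The chemoreceptor peaks had a median signal value of 16.8 against 17.1 for the others, and 11 of 26 were in both replicate lists. Among the 5000 highest nuclear peaks were 5 of the 26 (19.2%), against 9 of the 124 others (7.26%). CCAAT stood at 2 of 26 of their summits, 7.69%, against 24 of 124, 19.4%. Another match in the genome was found for 1 of the 26 peaks and for 3 of the 124 others.

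**Figure D5:**
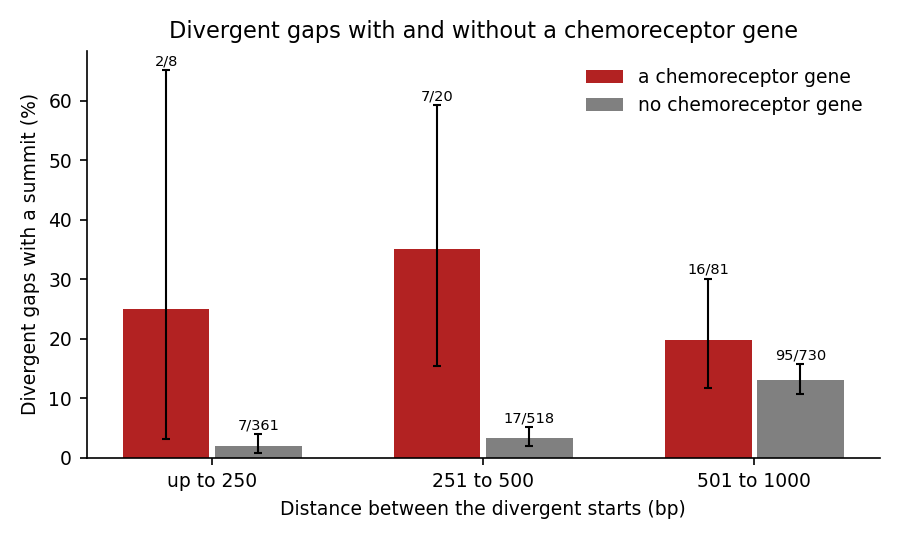
Share of divergent gaps that hold a pooled summit (vertical axis, %) by distance between the starts (horizontal axis, bp), for gaps with and without a chemoreceptor gene, with exact 95% intervals and counts above the bars. The chemoreceptor bars are the higher ones in all 3 bins, from 25 to 35% in the 2 shorter bins, which hold 8 and 20 gaps, and 19.8% in the longest.

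Histone genes, whose proteins package DNA and many of which stand in divergent pairs, had no summit in their gaps. Of the 72 histone genes, 62 lay at a divergent gap, in 31 pairs of histone genes, and 0 of the 31 gaps held a summit, which allows a share of up to 9.68%, while 17 of the 31 gaps hold CCAAT. These gaps are short, with a median of 259 bp, and 24 of the 31 had another match in the genome at 90% identity over 100 bp. The placement of reads there is uncertain, since how the authors treated reads with several matches is not stated in the labels. Over gaps up to 250 bp without histone genes, 9 of 359 held a summit, and over those above 250 and up to 500 bp, 24 of 517.

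The other gene lists had few members at these peaks. Of all protein-coding genes at a divergent gap, 8.38% had a summit, and no list was tested against that share. Of the 48 ribosomal protein genes at a divergent gap, 1 had a summit, rps-27, a small subunit gene (signal value 20.4, 6.68 and 13.4 in the replicates). For the heat shock and chaperonin genes it was 1 of 27, dnj-17, and for the proteasome genes 1 of 20, rpt-5, an ATPase of the proteasome cap (14.1). The respiratory chain list had 1 of 24, hpo-18, and the cell cycle list 1 of 33, mcm-7, a subunit gene of the replicative helicase. Both belong to the same gap and the same peak (15.1), which was in neither replicate list and had a CCAAT 37 bp from its summit. The translation factor list had 0 of 20, the tubulin and actin list 0 of 1 and the ER stress and lipid synthesis list 0 of 7. None of the 6 NF-Y subunit and reported target genes lay at a divergent gap.

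Cuticle collagens, which build the worm's outer layer, had 2 of 19 with a summit, col-102 and col-161. The gap of col-102 and prmt-4, an arginine methyltransferase gene, held 2 peaks, with signal values of 16.6 and 14.4, neither in the replicate 1 list, and the gap of col-161 had 15.5. Homeobox genes had 2 of 5, ceh-40 and ceh-7, the latter sharing its gap with prx-5, which encodes the import receptor of peroxisomes (19.5, with 10.6 and 13.9 in the replicates). Nuclear hormone receptor genes had 2 of 18, nhr-246 (15.0) and nhr-172 (13.7), both opposite a chemoreceptor gene and both in neither replicate list. Genes of the sperm list had 2 of 20, msp-74 (21.8) and nspd-10 (19.6, in replicate 2 alone with 15.8).

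The set was spread unevenly over the chromosomes. Chromosome V held 58 of the 150 peaks and had a summit in 56 of its 419 divergent gaps (13.4%), against 8 of 284 (2.82%) on chromosome III. The shares were 5.68% on I, 9.18% on II, 8.25% on IV and 10.1% on X. Without chemoreceptor gaps, chromosome V had 10.9% against 6.47% for all others together. These shares were not tested.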

How the data were processed

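Deposited ce11 lists of ChIP-seq peaks were analysed: replicate 1, replicate 2, both pooled, and the final list, 97 peaks that merge into regions of which 71 are nuclear. Per the deposited file descriptions, each list was made by the authors from alignments and a control. No aligner, peak caller or version is given in the sources used here. The signal value of each peak is as the authors deposited it, on a scale not stated, and was used for ranks and description inside a list. No read counts were used, so the depth is unknown. The ce10 lists were not used here.

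Peaks overlapping by 1 bp were merged. Gene starts came from Ensembl release 115 for WBcel235 and sequence from the RefSeq genome of the same assembly. Mitochondrial peaks were left out. Fisher's exact test, two-sided and with the exact conditional interval of the odds ratio, compared shares, with p-values adjusted by the Benjamini-Hochberg method over 8 tests at 0.05, and shares have exact Clopper-Pearson 95% intervals. A share of 0 was given a limit of 3 counts of the total, an approximation that lies below the exact two-sided limit. Tests treat peaks or gaps as units. As both replicates belong to 1 group, samples could not be tested against each other.

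Named peaks, 34 in all, were the 12 of highest signal, any in a final region (0), the 6 best ranked in both replicate lists, the 6 highest with CCAAT at most 10 bp from the summit, up to 6 whose genes share a list, and the 3 highest of each of 15 lists. The members and lists were chosen with earlier results of these data known. Alternatives covered distances, comparison class, replicate, list length and word window. Other genome matches came from BLAST 2.17.0 alignments with at least 90% identity and 100 bp, a step added after the data were seen. The gap, overlap and test steps were tested on simulated data. Scripts ran in Python 3.11.15 with scipy 1.17.1, pandas 2.3.3, numpy 2.4.6 and matplotlib 3.10.9.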

Additional observations from a re-analysis of the deposited data

How the results depend on the processing

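No test passed 0.05 after adjustment in any alternative run, and the interval of every odds ratio that turned includes 1. The odds ratio for CCAAT against single-gene upstream summits was 0.928. It turned to 1.02 with starts up to 2000 bp apart and to 1.02 with CCAAT within 25 bp. When each replicate was left out it lay between 0.778 and 1.04. Among peaks that overlap no coding exon it was 0.67 (0.317 to 1.29), an alternative chosen after seeing the data. The odds ratio for the highest 5000, 0.908, turned to 1.13 against tandem gaps, 1.18 with starts up to 2000 bp and 1.16 for the highest 10000, and lay between 0.882 and 1.28 when each replicate was left out. With the 10000 highest peaks alone, CCAAT against empty gaps turned from 1.23 to 0.911 and divergent against tandem gaps above 500 bp from 0.894 to 1.12. Without each replicate, those lay between 1.04 and 1.46 and between 0.878 and 0.922. For gaps up to 250 bp the odds ratio of 1.3 without each replicate lay between 0.836 and 1.29, and for those above 250 and up to 500 bp, 0.593 lay between 0.537 and 0.6. With the 10000 highest peaks alone the latter was 0.453 (adjusted p from 0.0986 to 0.562 over these 3 alternatives). For peaks in both replicate lists, 1.29 turned to 0.818 among peaks that touch no coding exon, an alternative chosen after seeing the data. The number of peaks, 150, was 33 with starts up to 500 bp, 419 with starts up to 2000 bp, 43 among the 10000 highest, and 148 to 151 in the replicate lists. Keeping only the final regions at or above the median signal value of the final list gave no odds ratio, because neither class overlapped any of these. The causes were not tested. No paired analysis was possible because the 2 samples form 1 group. The unknown depth limits what the absence of a peak shows.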
